A study of Mus musculus with 6 samples.

Results

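The genes described here encode the 4 pore subunits of the AMPA receptor (Gria1, Gria2, Gria3 and Gria4) and 6 of its auxiliary subunits (Cacng2, Cacng3, Cacng8, Cnih2, Cnih3 and Shisa9). They were chosen by name, with earlier results of these data known. All 10 were found among the 22180 genes tested, each through a probe set whose platform annotation names that gene alone. Signals come from Affymetrix arrays hybridised with hippocampal RNA of male mice at postnatal day 56, all on a C57BL/6J background. One group was 3 samples of Trpc4 wild type and the other was 3 samples of Trpc4 knock out, with 1 array per sample, and no other allele or agent is named for either. Trpc4 encodes a cation channel opened downstream of receptors coupled to phospholipase C. The labels give neither the deleted part of the gene nor a Cre driver, which limits what is known of the model. The comparison was whether deletion of Trpc4 went with a different signal of AMPA receptor genes, and every difference is knockout minus wild type on the log2 scale.

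AMPA receptors are glutamate-gated channels built from 4 GluA proteins, and they carry most fast excitatory transmission in the brain. In hippocampal pyramidal cells, GluA1 is mostly paired with GluA2, and GluA2 with GluA3. Editing of the GluA2 transcript makes channels that hold GluA2 poorly permeable to calcium. Around the pore sit auxiliary proteins: the transmembrane regulatory proteins (TARPs, encoded by Cacng genes), the cornichons (Cnih2 and Cnih3) and the cystine-knot protein CKAMP44 (Shisa9). They govern export of the receptor to the surface, its anchoring at the synapse and how fast it closes or desensitises.

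None of the 10 genes passed the adjusted threshold of 0.05, and the 10 adjusted p values ran from 0.867 to 0.987 (limma, Benjamini-Hochberg over all 22180 genes). The same fit called 0 genes in all, a percentage of 0, so a lack of calls is not particular to this set. At an unadjusted p under 0.05 the fit held 0 of the 10 genes, against 5.75% of all genes (1276 genes). Of the genes within the wild-type brightness range of the 10, 2.999% had such a p. The knockout mean was higher for 8 of the 10 and lower for Gria4 and Cacng3, where 54.9% of all genes had a higher knockout mean. The median difference of the 10 was 0.06, beside 0.01 over all genes tested. Within the brightness range of the 10, 58.7% of genes had a higher knockout mean and the median difference was 0.02. The 95% confidence intervals of the 10 differences all held 0 and lay between 81.9% and 127% of the wild-type signal, so larger changes than these fall outside the interval of every member. The 3 knockout values lay clear of the 3 wild-type values for 1 member, Cnih3, which is 10% of the members, beside 10.9% of all genes in either direction and 6.41% in the direction of Cnih3. Within the same brightness range these shares were 15.1% and 9.40%. The deleted gene itself, measured the same way, went from 8.12 ± 0.10 to 7.42 ± 0.12 (SD, n = 3 each), and its probe positions relative to the deletion were not used here. Its limma p was 8.87e-05 unadjusted and 0.738 adjusted, so this fit did not call Trpc4 either.

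**Figure D1:**
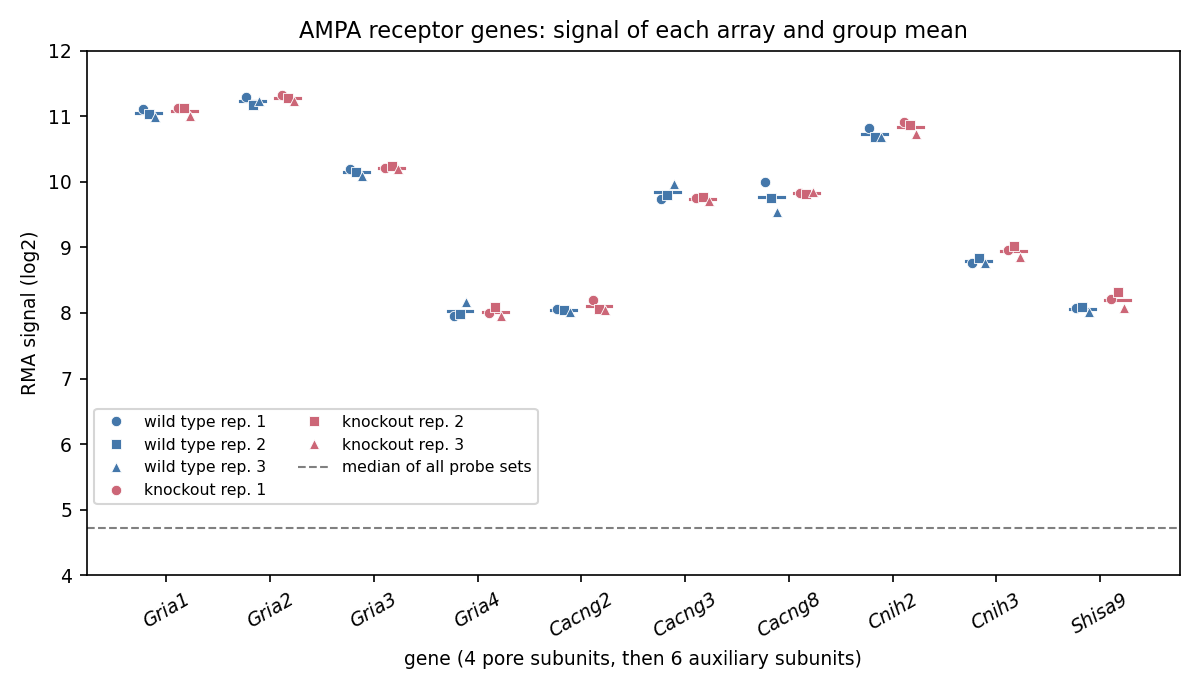
RMA signal (log2, vertical axis) of the 10 AMPA receptor genes in each of the 3 wild-type (blue) and 3 knockout (red) arrays. Symbols mark the replicate number, short lines the group means and the dashed line the median of all probe sets (4.72). Every gene lies well above that median, and the symbols of both groups overlap for all genes but Cnih3.

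Wild-type hippocampus gave a bright signal for the whole set: all 10 genes lay above the array medians, which lay between 4.73 and 4.75, and their wild-type means ran from 8.04 for Gria4 to 11.23 for Gria2. Brightness of different probe sets depends on their probes as well as on the transcript, so these levels do not rank the genes by abundance. The pooled within-group SD ran from 0.04 to 0.16 and was under the median of all genes (0.12) for 9 of the 10. Bright probe sets vary less in general: over the 2201 genes whose wild-type mean lay within the range of the 10, the median was 0.0687, and 6 of the 10 exceeded it. For 5 of the 10 the difference between genotypes was smaller than this SD.

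Gria2, which encodes the subunit that limits calcium entry, gave 11.29, 11.17 and 11.24 in wild-type replicates 1 to 3 and 11.32, 11.28 and 11.24 in knockout replicates 1 to 3. The groups overlapped, and the mean difference was 0.05 with a standard error of 0.07 (limma, adjusted p 0.952, 95% interval -0.12 to 0.22). It was 0.02 when wild-type replicate 2 was left out and 0.03 when knockout replicate 1 was, and it was 0.08 without wild-type replicate 1. Gria2 lies on chromosome 3, as does Trpc4, in the RefSeq table of GRCm38.p6. Gria1 encodes the GluA1 subunit, whose phosphorylation and delivery to synapses are central to long-term potentiation. Its signal was 11.12, 11.03 and 10.99 in wild type and 11.13, 11.13 and 11.01 in knockout. The highest wild-type array and 2 knockout arrays were within 0.02 of each other, and the difference was 0.04 (standard error 0.08, adjusted p 0.955, interval -0.14 to 0.23). Omission of knockout replicate 1, of knockout replicate 2 or of wild-type replicate 3 left a difference of 0.02, and that of wild-type replicate 1 or of knockout replicate 3 gave 0.08.

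Since the balance of GluA1 and GluA2 sets the calcium permeability of the receptor, the log2 signal of Gria2 minus that of Gria1 was taken within each array. It was 0.17, 0.14 and 0.25 in wild-type and 0.19, 0.15 and 0.23 in knockout replicates 1 to 3. The knockout range lay inside the wild-type range. The change between genotypes was 0.0025 (exact permutation test, two-sided, p = 1), where the smallest p of 3 against 3 samples is 0.1. Without knockout replicate 3 it was -0.02, and without wild-type replicate 3 it was 0.03. Only a change of this difference can be read, not its level, as the signals come from different probes. RNA signals do not show editing of the Gria2 transcript.

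Gria3, the usual partner of GluA2 in receptors that cycle constantly at synapses, gave 10.20, 10.15 and 10.08 in wild type and 10.21, 10.24 and 10.20 in knockout. Its knockout arrays were tightly grouped (SD 0.02, n = 3) and the highest wild-type array reached into their range. The difference was 0.07 (standard error 0.07, limma, adjusted p 0.934), and it was 0.04 without wild-type replicate 3 and 0.10 without wild-type replicate 1. Gria4 encodes the subunit that speeds receptor kinetics in parvalbumin interneurons and is prominent in the young hippocampus. It gave 7.95, 7.99 and 8.17 in wild type and 8.01, 8.09 and 7.95 in knockout, a full overlap with a difference of -0.02 and a standard error of 0.09 (adjusted p 0.987). The sign of Gria4 turned without wild-type replicate 3 (0.05) or knockout replicate 3 (0.01). Markers of interneurons were lower in knockout in 10 of 11 measured cases, where 54.9% of all genes had a higher knockout mean, and by -0.11 on average. None of the 11 passed the adjusted threshold (lowest adjusted p 0.853, limma). An unadjusted p under 0.05 was found for 1 of the 11, beside 5.75% of all genes in either direction. Groups did not overlap for 2 of the 11, both lower in knockout, beside 10.9% of all genes in either direction. Pvalb, the parvalbumin gene, had overlapping groups and went from 5.83 ± 0.19 to 5.64 ± 0.19 (SD, 3 arrays per genotype). Their part in the Gria4 values was not tested, and in bulk tissue fewer cells of a type cannot be told apart from less RNA per cell.

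**Figure D2:**
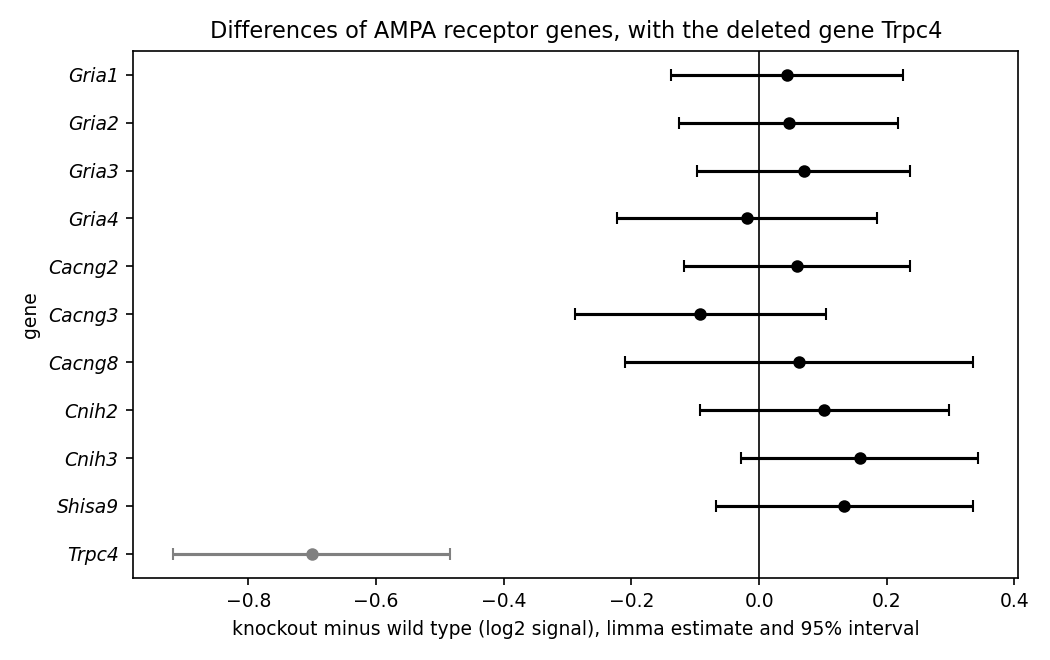
Knockout minus wild-type difference in log2 signal for the 10 AMPA receptor genes and, in grey, the deleted gene Trpc4. Points are limma estimates and bars 95% confidence intervals (3 arrays per genotype). The 10 intervals cross 0 and reach from -0.29 to 0.34, while that of Trpc4 runs from -0.92 to -0.48.

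The 3 TARP genes showed no common direction. Cacng8 encodes TARP γ-8, the most hippocampus-enriched TARP, needed there for normal receptor levels. Its signal was 9.9998, 9.75 and 9.54 in wild type and 9.82, 9.81 and 9.84 in knockout. The wild-type arrays spread widely (SD 0.23, n = 3) and the knockout arrays hardly at all (SD 0.02, n = 3), with all knockout values between the highest and the second wild-type value. The difference of Cacng8 was 0.06 with a standard error of 0.12 (limma, adjusted p 0.959, interval -0.21 to 0.34). It depended on single wild-type arrays, at -0.05 without wild-type replicate 3 and 0.18 without wild-type replicate 1. Cacng3 encodes TARP γ-3, a forebrain relative of stargazin, and it gave 9.74, 9.81 and 9.97 in wild type and 9.76, 9.78 and 9.70 in knockout. This was the lowest difference of the 10 genes, -0.09 with a standard error of 0.08 (adjusted p 0.924). It was -0.03 without wild-type replicate 3, the highest array, and -0.14 without wild-type replicate 1.

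Cacng2 encodes stargazin (TARP γ-2), the founding TARP, whose loss in stargazer mice removes AMPA receptors from cerebellar granule cells. It was the only one of the 10 genes with 2 probe sets. The brighter one gave 8.06, 8.04 and 8.02 in wild type and 8.20, 8.06 and 8.04 in knockout, so that knockout replicate 1 alone stood above the wild-type arrays by more than 0.1. The difference was 0.06 (standard error 0.08, limma, adjusted p 0.944), and 0.01 without knockout replicate 1. The dimmer probe set had wild-type signals of 5.56 ± 0.18 and knockout signals of 5.59 ± 0.19 (SD, 3 arrays per group) and differed by 0.03. Both probe sets of Cacng2 thus had overlapping groups and the same sign.

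The cornichon genes and Shisa9 had the 3 highest differences of the set. Cnih3, which encodes a cornichon that binds the receptor and slows its closing, gave 8.76, 8.84 and 8.76 in wild type and 8.96, 9.03 and 8.85 in knockout. All knockout arrays were above all wild-type arrays, but the lowest knockout value and the highest wild-type value were 0.0038 apart. The difference was 0.16 (standard error 0.08), so that knockout gave 112% of the wild-type signal (limma, p 0.0854 unadjusted and 0.867 adjusted). An exact permutation test of Cnih3 gave a two-sided p of 0.1, the lowest this design allows. When single samples were left out, it stayed above 0, at its lowest (0.12) without knockout replicate 2 and its highest (0.21) without knockout replicate 3.

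Cnih2, the main hippocampal cornichon, which acts together with TARP γ-8 on receptors of pyramidal cells, gave 10.81, 10.68 and 10.69 in wild type and 10.91, 10.86 and 10.72 in knockout. Knockout replicate 3 lay within the wild-type range and the other knockout arrays above it. The difference was 0.10 (standard error 0.08, limma, adjusted p 0.912), from 0.06 without knockout replicate 1 to 0.16 without knockout replicate 3. Shisa9 encodes CKAMP44, a protein abundant in dentate granule cells that deepens desensitisation of the receptor. It gave 8.08, 8.10 and 8.02 in wild type and 8.21, 8.32 and 8.07 in knockout. The difference was 0.13 (standard error 0.09, adjusted p 0.897). As for Cnih2, knockout replicate 3 fell inside the wild-type range of Shisa9, and the difference was 0.20 without that array and 0.07 without knockout replicate 2.

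The arrays were not shifted alike within a genotype. Knockout replicate 3 was the lowest knockout array for 9 of the 10 genes, Cacng8 being the exception. Knockout replicates 1 and 2 each exceeded the six-array mean for 8 of the 10 genes and knockout replicate 3 for 2. The mean deviation of the 10 genes from their six-array means was 0.01, -0.04 and -0.05 in wild-type replicates 1 to 3 and 0.06, 0.06 and -0.03 in knockout replicates 1 to 3. Without knockout replicate 3, groups did not overlap for 6 of the 10 genes (Gria1, Gria3, Cacng2, Cnih2, Cnih3 and Shisa9), against 21.8% of all genes under the same omission. Without wild-type replicate 1 it was 5 (Gria3, Cacng3, Cacng8, Cnih2 and Cnih3, of which Cacng3 was lower), against 23.7% of all genes. Without any of the other 4 samples it was Cnih3 alone, against 19.3% to 21.2%. Shares under these omissions were taken over all genes and not over genes of like brightness. With all samples, 15.1% of genes in the brightness range of the 10 had groups that did not overlap, against 10.9% of all genes. Limma called none of the 10 genes at the adjusted threshold in any of these omissions, and all lay at an unadjusted p above 0.05.

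Cell type markers differed between the same arrays. Myelin and oligodendrocyte markers were lower in knockout for 13 of 13 measured genes, where 54.9% of all genes had a higher knockout mean. Their mean difference was -0.48. Their mean log2 level was 8.49 to 8.60 in the wild-type arrays and 8.09, 7.76 and 8.39 in knockout replicates 1 to 3. Without knockout replicate 2 the mean difference was -0.32. Knockout replicates 1 and 2 had the lowest myelin levels and the highest mean levels of the 10 AMPA receptor genes (9.65 and 9.66). The remaining arrays did not follow that order, as wild-type replicate 1 had the highest myelin level (8.60) and an AMPA receptor level of 9.60, above the 9.56 of knockout replicate 3. Dentate granule cell markers were higher in knockout in 8 of 8 cases, beside 54.9% of all genes. Their mean level ran from 6.68 to 7.02 in wild type and from 6.91 to 7.10 in knockout. The mean difference of the dentate markers was 0.17, and it was 0.10 without wild-type replicate 2 and 0.27 without wild-type replicate 1. The highest dentate level was in knockout replicate 2, also the highest array for Shisa9 (8.32) and Cnih3 (9.03). The next highest was in wild-type replicate 1, where Shisa9 (8.08) and Cnih3 (8.76) lay below their levels in wild-type replicate 2. Of these 13 myelin and 8 dentate genes, 0 passed the adjusted threshold in limma, while 13 and 2 had an unadjusted p under 0.05. Of all genes, 5.75% had such a p in either direction and 3.16% had it with a higher knockout mean. The 7 pan-neuronal markers had a mean level of 10.26 to 10.35 in wild type and 10.34 to 10.37 in knockout. Their mean difference was 0.05, beside a mean of 0.06 for the 10 AMPA receptor genes. Of the 7, 4 were higher and 3 lower in knockout, with a median difference of 0.01. The part of these markers in the AMPA receptor values was not tested.

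**Figure D3:**
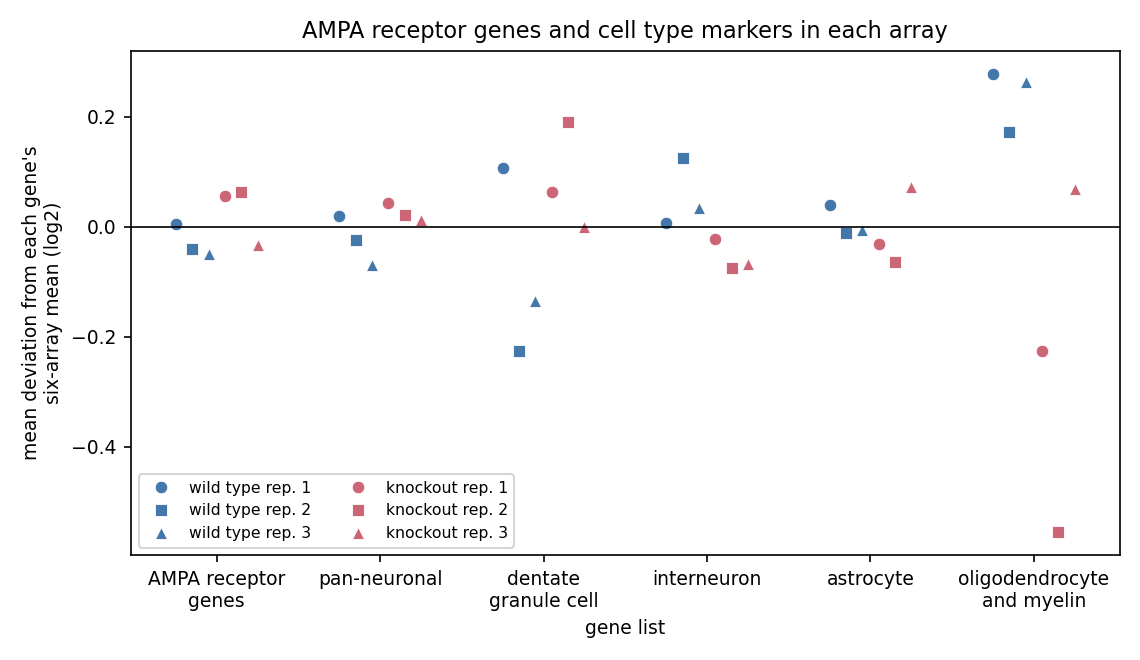
Mean deviation of each gene list from its genes' six-array means (log2, vertical axis) in the 3 wild-type (blue) and 3 knockout (red) arrays, for the AMPA receptor genes and 5 marker lists. The AMPA receptor genes stay between -0.05 and 0.06, while myelin markers range from -0.56 in knockout replicate 2 to 0.28 in wild-type replicate 1.

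The tissue label was read against markers of the hippocampal fields and of neighbouring regions, named here after their values were seen. Prox1, the transcription factor that defines dentate granule cells, was at 7.92 ± 0.13 in wild type (SD, n = 3). Of the 8 dentate markers measured, Tdo2 at 4.66 lay below the array medians and the others above. All 5 CA1 markers measured lay above, from Pou3f1 at 7.04 to Wfs1 at 9.02 ± 0.11 (SD, n = 3). Of the 3 striatal markers measured, Drd1 at 4.44 lay below the array medians, and Drd2 at 5.21 and Rgs9 at 6.68 lay above them. Of the 6 thalamic markers, Gbx2 at 4.63 lay below and the other 5 above, among them Slc17a6 at 6.78. The array medians run over all probe sets, and among the genes tested 49.7% were dimmer than Drd2 in wild type. The CA1 list had a mean difference of 0.04, made up of opposite members such as Wfs1 (-0.25) and Mpped1 (0.26). The CA3 list had a mean of 0.01, with Iyd at -0.36, and its mean was -0.05 without knockout replicate 1. The mean was -0.13 for choroid plexus markers and -0.09 for endothelial ones. Single omissions moved the former between -0.20 and -0.05 and the latter between -0.18 and -0.04. Thalamus, oligodendrocyte precursor, astrocyte, microglia and striatum lists had means of -0.06, -0.03, -0.02, 0.02 and 0.04. For the last 4 of these the median had the opposite sign to the mean.

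Beyond the 10 genes, 56 of 58 listed genes of AMPA receptor biology were measured, in groups of other complex members, of assembly and of synaptic anchoring. None passed the adjusted threshold (lowest adjusted p 0.853, limma). Their median difference was 0.03, and 38 of the 56 (67.9%) had a higher knockout mean, beside 54.9% of all genes. An unadjusted p under 0.05 was found for 3 of the 56, which is 5.36% beside 5.75% of all genes. Groups did not overlap for 11 of the 56, or 19.6%, beside 10.9% of all genes and 15.1% of genes in the brightness range of the 10. Not all of the 56 lay in that range. Knockout was the higher group for 4 of these genes among other complex members, 1 in assembly and 4 in synaptic anchoring. It was the lower group for 2, both in synaptic anchoring. Of the 2409 genes among all 22180 whose groups did not overlap, knockout was the higher group for 1422, or 6.41% of all genes.

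Of 18 other complex and auxiliary genes, 13 had a higher and 5 a lower knockout mean, with a median of 0.06. The 3 genes at an unadjusted p under 0.05 were all in this group and all higher in knockout, where 3.16% of all genes had such a p in that direction. Prrt1 encodes SynDIG4, which keeps a reserve of AMPA receptors outside the synapse. It gave 9.12, 9.30 and 9.17 in wild type and 9.48, 9.51 and 9.30 in knockout, with the lowest knockout array just below the highest wild-type one. Its difference was 0.23 with a standard error of 0.09 (limma, unadjusted p 0.0363, adjusted p 0.853). Gsg1l encodes an auxiliary subunit that restrains receptor current, and it gave 6.09, 6.20 and 6.12 in wild type and 6.42, 6.33 and 6.29 in knockout, with no overlap. The difference of Gsg1l was 0.21 with a standard error of 0.08 (unadjusted p 0.0263, adjusted p 0.853). Syndig1, a synapse-inducing relative of Prrt1, gave 6.36, 6.21 and 6.27 in wild type and 6.39, 6.56 and 6.48 in knockout, again with no overlap and a difference of 0.19 with a standard error of 0.08 (unadjusted p 0.0491, adjusted p 0.853). The 3 genes were all above an unadjusted p of 0.05 without wild-type replicate 3 (0.0679 to 0.0999) or knockout replicate 2 (0.0516 to 0.149). Without wild-type replicate 1 or knockout replicate 1, only Syndig1 stayed under 0.05. Without wild-type replicate 2 or knockout replicate 3, only Gsg1l and Prrt1 did.

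**Figure D4:**
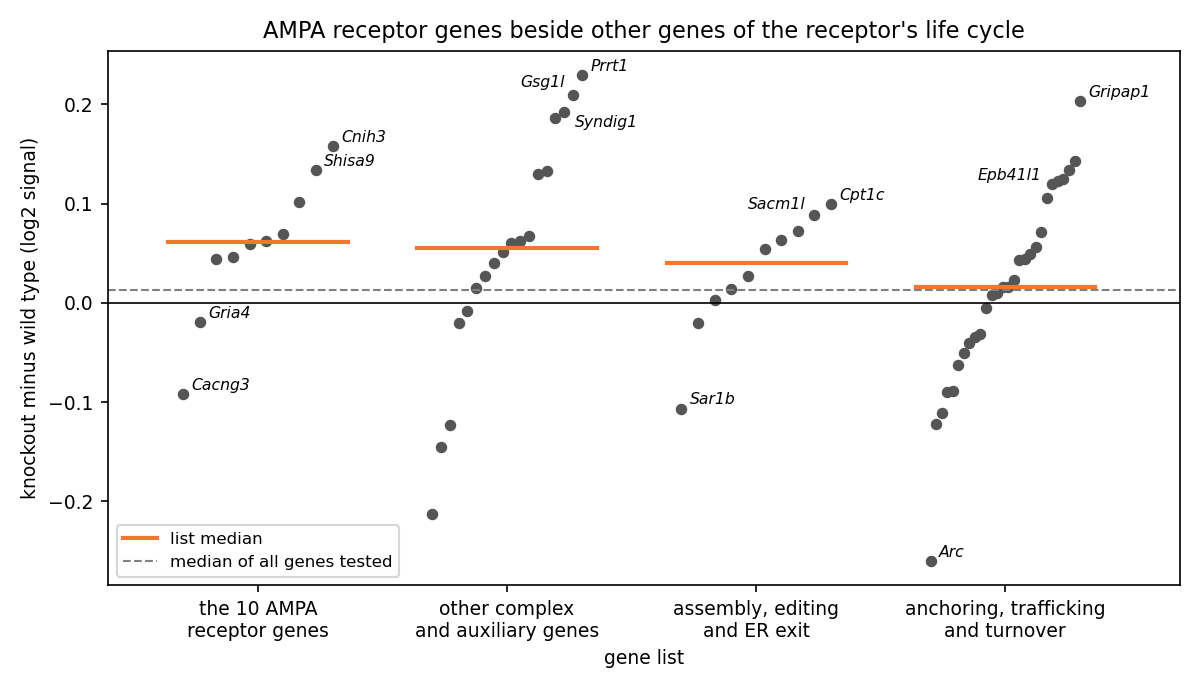
Knockout minus wild-type difference in log2 signal (vertical axis) for each AMPA receptor gene and for the measured genes of 3 other lists, ordered by size within a list. Orange lines are list medians (0.06, 0.06, 0.04 and 0.02 from left to right) and the dashed line is the median of all genes tested (0.01).

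Among 10 genes of assembly, editing and exit from the endoplasmic reticulum, 8 had a higher knockout mean and 0 reached an unadjusted p under 0.05. Cpt1c, whose product binds GluA1 in the endoplasmic reticulum, differed by 0.10 with a standard error of 0.07 (limma, adjusted p 0.900), with groups that did not overlap. Sar1b, a GTPase of vesicles that leave the endoplasmic reticulum, differed by -0.11 and the lipid phosphatase gene Sacm1l by 0.09, both with overlapping groups. Sar1b was at -0.18 without wild-type replicate 2, and Sacm1l at 0.16 without that array and 0.04 without wild-type replicate 1. Adarb1, which encodes the enzyme that edits the Gria2 transcript, was at 8.30 in both genotypes and differed by 0.0026 with an interval of -0.20 to 0.21.

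Among 28 measured genes of anchoring, trafficking and turnover, 17 had a higher and 11 a lower knockout mean, the median was 0.02, and 0 reached an unadjusted p under 0.05. Gripap1 encodes GRASP-1, which acts in recycling of receptors from endosomes. It gave 7.02, 6.92 and 7.03 in wild type and 7.05, 7.23 and 7.31 in knockout, a difference of 0.20 with a standard error of 0.09 (limma, unadjusted p 0.0572, adjusted p 0.857). Arc, an activity-induced gene whose protein promotes removal of AMPA receptors from the surface, gave 8.35, 8.41 and 8.46 in wild type and 8.36, 7.93 and 8.16 in knockout. It differed by -0.26 with a standard error of 0.12 (unadjusted p 0.0578, adjusted p 0.857), and by -0.15 without knockout replicate 2. Without knockout replicate 1 the unadjusted p of Gripap1 was 0.0174 and that of Arc 0.0102. Under the 5 other omissions Gripap1 had 0.0762 to 0.179 and Arc 0.0779 to 0.186. Epb41l1, the actin linker that binds GluA1, gave 9.73, 9.73 and 9.76 in wild type and 9.87, 9.86 and 9.84 in knockout, tight groups that did not overlap, with a difference of 0.12 and a standard error of 0.07 (adjusted p 0.878). Dlg4, which encodes the scaffold PSD-95 that holds TARPs at the synapse, differed by 0.04 with an interval of -0.13 to 0.22, and was chosen after its values were seen, as were Adarb1 and Pvalb.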

How the data were processed

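Hippocampal RNA of 6 samples was measured, 3 per genotype as their labels give it. The authors deposited log2 expression values of 41345 probe sets, for which the submitters' processing notes name RMA and Affymetrix Power Tools. Any versions, array annotation or build were not given in the sources used here. RMA puts arrays on one distribution, which hides any shift common to most genes. Whether replicates are separate animals is not stated, and the spread behind each p-value may be partly technical.

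Probe sets naming exactly 1 gene (23521) were kept, the one with the highest mean over the 6 arrays standing for its gene (22180 genes). Knockout was compared with wild type in limma 3.58.1 (R 4.3.3, lmFit and eBayes, genotype only), Benjamini-Hochberg adjusted at 0.05. Figures used matplotlib 3.10.9. The fit was tested on simulated data with known changes. Precision is limited by the number of arrays (median standard error 0.0997).

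The 10 genes and the lists, written from general knowledge, were chosen with earlier results of these data known. Named outside the 10 were, per group, the genes with an unadjusted p under 0.05, or the 3 lowest, and exceptions are stated. Alternatives were a replicate block, quantile normalization, median centring, a filter on dim genes, trend and robust variance, array weights, the mean of probe sets, and leaving out each sample.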

Additional observations from a re-analysis of the deposited data

How the results depend on the processing

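No AMPA receptor gene was called under any of the 13 alternatives. Their lowest adjusted p was 0.732, with only genes above the median of all probe sets, and Cnih3 reached an unadjusted p under 0.05 only with trend and robust variance. The median difference of the 10 genes stayed between 0.04 and 0.09. With a replicate block 0 of the 10 genes had an unadjusted p under 0.05. The labels do not say whether replicate numbers pair the samples. Deviations from the group means correlated at 0.067, 0.0348 and -0.0038 between samples of the same number, for numbers 1 to 3. The highest correlations with other numbers were -0.0229, 0.0274 and 0.0106. These correlations were not tested and cannot decide whether the samples were paired. Signs turned for Gria4 without wild-type replicate 3 (0.047) or knockout replicate 3 (0.013), and for Cacng8 without wild-type replicate 3 (-0.047). Without single samples Gria4 ranged from -0.060 to 0.047 and Cacng8 from -0.047 to 0.18. The within-array change of Gria2 minus Gria1 ran from -0.021 to 0.033 without single samples. Over all genes, the 0 calls became 1 (Trpc4, at 0.0378) under trend and robust variance and 0 to 1 without single samples (Rps13, without knockout replicate 1). The 3 other AMPA receptor genes at an unadjusted p under 0.05 became 1 with the replicate block and 7 under trend and robust variance. They became 6 when genes below the median were dropped and 5 with array weights. Of all 22180 genes, 1276 had such a p in the main fit and 1316 with the replicate block. It was 1379 under trend and robust variance, 1309 with array weights and 901 of 12978 when genes below the median were dropped. The other AMPA receptor genes with such a p became 0 without wild-type replicate 3 or without knockout replicate 2. Under these omissions 1086 and 1178 of all 22180 genes had such a p. The replicate block changed no adjusted call. Checks on named other genes, marker lists and overlap of groups were chosen after seeing the data, and the cause of these shifts was not tested. Signals near the array median cannot be set against a measured background.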

Other observations

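The SD of Cacng8, picked out after its values were seen, was larger in wild type than in knockout. Its wild-type arrays covered 9.54 to 9.9998 and its knockout arrays 9.81 to 9.84 (SD 0.23 against 0.02, n = 3 each), which was not tested. Its pooled within-group SD of 0.16 was the largest of the 10 AMPA receptor genes. Other members had unequal SDs too, in both directions. Gria3 had 0.06 in wild type and 0.02 in knockout, and Shisa9 had 0.04 in wild type and 0.12 in knockout (n = 3 each).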
